A study of Mus musculus with 10 samples.

Results

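The 10 genes described here encode signaling proteins of the TGF-beta superfamily: 8 ligands (*Tgfb1*, *Tgfb2*, *Tgfb3*, *Inhba*, *Inhbb*, *Bmp2*, *Bmp4* and *Gdf15*) and the 2 receptors that bind TGF-beta (*Tgfbr1* and *Tgfbr2*). They were taken by symbol from a table of 45706 genes, and all 10 were found and passed the filter on low counts. RNA came from whole melanomas of C57BL/6 mice of 8 weeks, collected on day 4 after subcutaneous injection of tumor cells. The cells derive from a melanoma line driven by a mutant *Braf* allele on a background without p16, and in the *Ptgs*-/- line *Ptgs1* and *Ptgs2*, which encode the cyclooxygenases COX-1 and COX-2, were disrupted by CRISPR/Cas9. The groups are 4 COX-competent *Ptgs*+/+ tumors (WT_CTR) and 3 COX-deficient *Ptgs*-/- tumors (KO_CTR) from untreated mice, and 3 *Ptgs*-/- tumors from NK cell-depleted mice (KO_aNK), which according to the labels were given antibodies to NK1.1 (200 µg) and to asialo GM1 (30 µg). In this design COX loss is compared in untreated hosts, and NK cell depletion is compared within COX-deficient tumors only.

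TGF-beta superfamily ligands are secreted dimers that assemble pairs of type I and type II serine/threonine kinase receptors, which phosphorylate Smad proteins. TGF-betas and activins act through Smad2 and Smad3, and BMPs through Smad1, Smad5 and Smad9. TGF-beta is secreted in a latent form that must be released from its propeptide, and it restrains NK and T cells and drives matrix production in tumors.

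The 10 libraries held 8150556 to 12839174 counts, and 3 counts, taken as the detection floor, corresponded to 0.234 to 0.368 CPM, the count scaled to a common library total. *Ptgs2* stood at 346.6, 290.1, 94.4 and 283 CPM in *Ptgs*+/+ tumors, at 74.8, 27.2 and 27.0 CPM in *Ptgs*-/- tumors and at 40.2 to 49.3 CPM in those of NK cell-depleted mice, and the summed level of 6 NK cell genes was 53.6 to 118 CPM in *Ptgs*-/- tumors and 0.695 to 2.58 CPM after depletion. Of 7 melanocytic genes, *Tyr*, *Tyrp1* and *Mlana* had 3 or fewer counts in every library, while *Mitf* stood at 17.4 to 33.1 CPM and *Sox10* had 2 to 63 counts. *Ptgs*+/+ replicate 3 lay furthest from its group, with a median distance over genes of 0.27 on the log2 scale from the other *Ptgs*+/+ libraries. *Ptgs*-/- replicate 1 followed closely, at 0.25 from its group, and the remaining libraries lay at 0.15 to 0.21 from theirs. Sample titles hold 2 codes, taken here to mark separate experiments. The second code is found on 1 *Ptgs*+/+ tumor (replicate 4) and 1 *Ptgs*-/- tumor (replicate 3), and every NK cell-depleted tumor has the first. Nothing in the labels beyond the title numbers ties the libraries to separate animals, so p-values measure the spread between these tumors.

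In *Ptgs*-/- against *Ptgs*+/+ tumors, 7 of the 10 genes passed, in both directions. *Tgfb1*, *Tgfb2* and *Tgfbr2* rose, while *Tgfb3*, *Inhba*, *Inhbb* and *Bmp4* fell. Passing means an adjusted p at or under 0.05 (edgeR's quasi-likelihood test, Benjamini-Hochberg adjustment over 14550 genes), which 23.1% of all genes reached in this comparison. With a second threshold, a log2 fold change beyond 1.5 in either direction, 1 of the 10 genes (*Bmp4*) and 4.15% of all genes passed. The groups of libraries did not overlap for 7 of the 10 genes and for 30.6% of all genes. The median log2 fold change was -0.17 over the 10 genes and -0.01 over all genes. Without *Ptgs*+/+ replicate 3 the same 7 genes passed, but only 3 did without *Ptgs*-/- replicate 2, and 4 without *Ptgs*-/- replicate 3 or within the first experiment code.

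**Figure D1:**
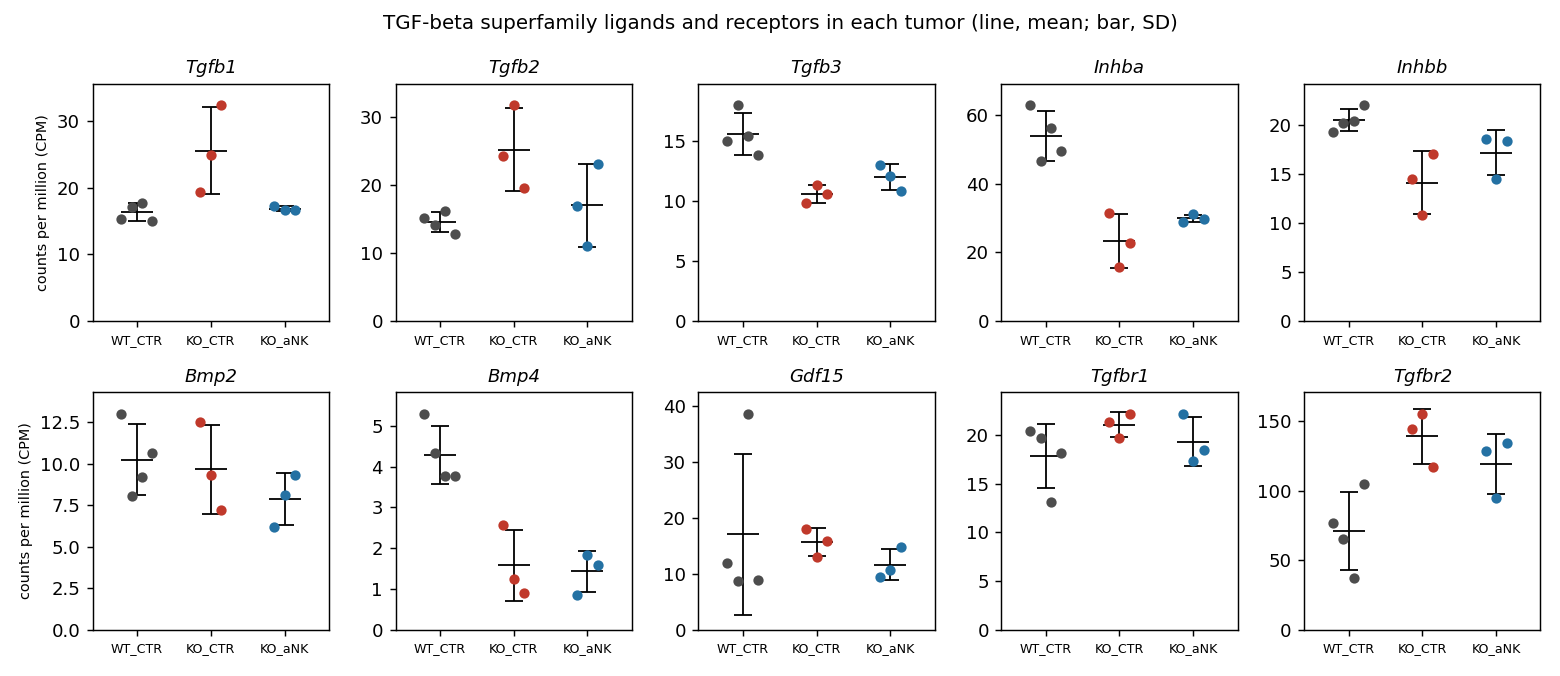
Level of each ligand and receptor in every tumor, in CPM on a linear axis from 0, with 1 point per library, a line at the group mean and a bar of 1 SD (n = 4, 3 and 3). *Inhba* and *Bmp4* are lower in both COX-deficient groups, *Tgfb1* is higher in *Ptgs*-/- tumors of untreated mice, and 1 *Ptgs*+/+ tumor reaches 38.5 CPM of *Gdf15*.

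The QuantSeq libraries count the 3′ ends of transcripts, so CPM do not scale with gene length and can be set side by side between genes on that scale. Ranked by mean level in *Ptgs*+/+ tumors, *Tgfbr2* (71.1 CPM) and *Inhba* (53.9 CPM) came first, followed by *Inhbb* (20.4 CPM), *Tgfbr1* (17.8 CPM), *Gdf15* (17.0 CPM), *Tgfb1* (16.3 CPM), *Tgfb3* (15.5 CPM), *Tgfb2* (14.6 CPM), *Bmp2* (10.2 CPM) and *Bmp4* (4.29 CPM). *Tgfbr2* and *Inhba* were closer than the SD of *Tgfbr2* (28.1 CPM), and from *Inhbb* to *Bmp2* each step in this order is smaller than the SD of at least 1 of the genes beside it, except the step from *Tgfb2* to *Bmp2*. In *Ptgs*-/- tumors *Tgfb1* (25.5 CPM) and *Tgfb2* (25.2 CPM) stood above *Inhba* (23.3 CPM) by less than their spread.

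*Tgfb1* (ENSMUSG00000002603, chromosome 7 of GRCm38 from 25687002 to 25705077, plus strand) encodes the TGF-beta isoform that predominates in immune cells and platelets. It stood at 15.3, 17.1, 17.7 and 15.1 CPM in *Ptgs*+/+ tumors, at 19.4, 24.8 and 32.4 CPM in *Ptgs*-/- tumors and at 17.2, 16.6 and 16.7 CPM after NK cell depletion. All 3 *Ptgs*-/- libraries of untreated mice lay above every other library, and the depleted group lay within the *Ptgs*+/+ range. *Tgfb1* thus rose with COX loss by a log2 fold change of 0.59 ± 0.16 (SE; adjusted p = 0.0203, edgeR's quasi-likelihood test). The highest value belongs to *Ptgs*-/- replicate 3, of the second experiment code. Without it the log2 fold change was 0.43 (adjusted p = 0.0827), and within the first code it was 0.38 (adjusted p = 0.137, both edgeR's quasi-likelihood test).

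*Tgfb2* (ENSMUSG00000039239, chromosome 1 from 186622792 to 186705989, minus strand) encodes an isoform that binds its receptors weakly without betaglycan. Its levels were 15.1, 14.1, 16.2 and 12.9 CPM in *Ptgs*+/+ tumors, 24.3, 31.8 and 19.6 CPM in *Ptgs*-/- tumors, and 16.9, 10.98 and 23.1 CPM after NK cell depletion. The 3 *Ptgs*-/- libraries of untreated mice exceeded all 4 *Ptgs*+/+ libraries, and the depleted group spread across both. *Tgfb2* rose by a log2 fold change of 0.73 ± 0.23 (SE; adjusted p = 0.0405, edgeR's quasi-likelihood test). This call was lost on leaving out *Ptgs*+/+ replicate 1, 2 or 4, *Ptgs*-/- replicate 1 or 2, or depleted replicate 1, and the adjusted p was highest in the absence of *Ptgs*-/- replicate 2 (log2 fold change 0.54, adjusted p = 0.174, edgeR's quasi-likelihood test). It was also lost within the first code (0.87, adjusted p = 0.0557) and with the replicate number as a block (0.73, adjusted p = 0.0598, both edgeR's quasi-likelihood test).

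*Tgfb3* (ENSMUSG00000021253, chromosome 12 from 86056745 to 86079041, minus strand), the isoform best known from palate fusion and scarless healing, went the other way. It stood at 15.0, 17.9, 15.4 and 13.8 CPM in *Ptgs*+/+ tumors, at 9.82, 11.3 and 10.6 CPM in *Ptgs*-/- tumors and at 12.9, 12.1 and 10.8 CPM after NK cell depletion. Every COX-deficient library, depleted or not, lay below every *Ptgs*+/+ library. *Tgfb3* fell, at a log2 fold change of -0.61 ± 0.15 (SE; adjusted p = 0.0120, edgeR's quasi-likelihood test), and without *Ptgs*-/- replicate 3 the adjusted p was 0.0522 (edgeR's quasi-likelihood test). *Ttll5* overlaps *Tgfb3* on the opposite strand and had 28.1 to 44.8 CPM with a log2 fold change of -0.31 (adjusted p = 0.145, edgeR's quasi-likelihood test), and since it is not stated whether counting used strand, part of the *Tgfb3* count may belong to it.

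With *Tgfb1* and *Tgfb2* higher and *Tgfb3* lower, the makeup of the TGF-beta counts differed between the groups. The 3 isoforms together had 41.7 to 49.2 CPM in *Ptgs*+/+ tumors, 53.5 to 67.9 CPM in *Ptgs*-/- tumors and 39.7 to 50.7 CPM after NK cell depletion. Of these counts *Tgfb3* made up 31.2% to 36.5% in *Ptgs*+/+ tumors, 16.6% to 18.3% in *Ptgs*-/- tumors and 21.4% to 30.5% in those of depleted mice. For the lowest share, 16.6%, the exact Clopper-Pearson interval at 95% was 13.8% to 19.7%, and for the lowest *Ptgs*+/+ share, 31.2%, it was 27.4% to 35.2%, both covering counting error only. These shares are a description drawn from the same counts as the tests above.

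**Figure D2:**
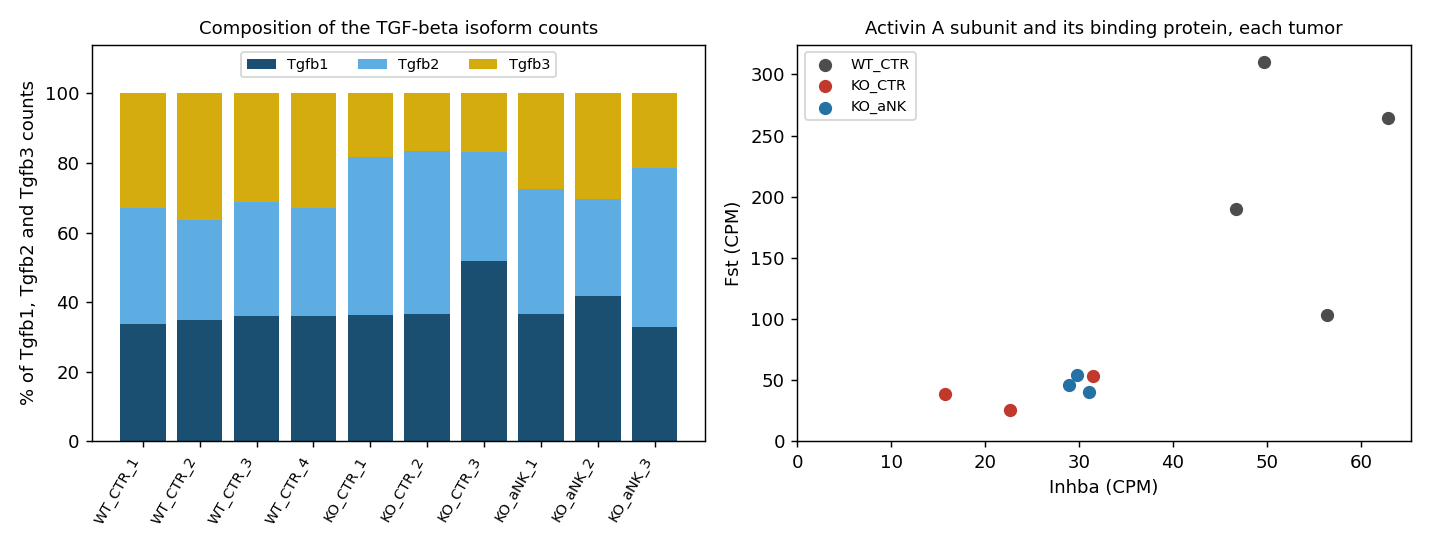
Left, percent of the summed *Tgfb1*, *Tgfb2* and *Tgfb3* counts that each isoform takes in every tumor; right, *Fst* against *Inhba* in CPM, 1 point per tumor. The *Tgfb3* share is 31.2% to 36.5% in *Ptgs*+/+ tumors and 16.6% to 18.3% in *Ptgs*-/- tumors of untreated mice, and both *Fst* and *Inhba* are lower in each of the 6 COX-deficient tumors than in any *Ptgs*+/+ tumor.

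The activin subunits fell together. *Inhba* (ENSMUSG00000041324, chromosome 13 from 16011851 to 16031621, plus strand) encodes the beta A subunit, whose dimer is activin A, a regulator of follicle-stimulating hormone, wound repair and muscle mass. It stood at 62.9, 46.7, 56.4 and 49.7 CPM in *Ptgs*+/+ tumors, at 31.5, 15.7 and 22.6 CPM in *Ptgs*-/- tumors and at 28.9, 31.1 and 29.8 CPM after NK cell depletion. All 6 COX-deficient libraries lay below all 4 *Ptgs*+/+ libraries. With COX loss *Inhba* had a log2 fold change of -1.28 ± 0.20 (SE), or 2.42-fold lower (adjusted p = 0.00119, edgeR's quasi-likelihood test). It had the smallest adjusted p of the 10 genes, and *Inhba* passed in this comparison in each of the 20 alternative fits, at log2 fold changes of -1.56 to -1.05.

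*Inhbb* (ENSMUSG00000037035, chromosome 1 from 119415465 to 119422248, minus strand) encodes the beta B subunit, found in activin B and activin AB. Levels were 19.2, 20.2, 20.4 and 21.97 CPM in *Ptgs*+/+ tumors, 14.5, 10.8 and 17.1 CPM in *Ptgs*-/- tumors, and 18.5, 14.5 and 18.4 CPM in those of depleted mice. The COX-deficient libraries were again all below the *Ptgs*+/+ libraries, by a smaller margin than for *Inhba*. *Inhbb* fell, at a log2 fold change of -0.59 ± 0.16 (SE; adjusted p = 0.0197, edgeR's quasi-likelihood test), and without *Ptgs*-/- replicate 2, the lowest library, it was -0.43 (adjusted p = 0.0850, edgeR's quasi-likelihood test). *Inha*, whose product turns a beta subunit into an inhibin, was too low to test, at 0.33 CPM on average in *Ptgs*+/+ tumors.

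Of the BMP ligands, *Bmp4* (ENSMUSG00000021835, chromosome 14 from 46383520 to 46390669, minus strand), a morphogen of mesoderm and bone, was the least abundant of the 10 genes and the only one past a log2 fold change of 1.5. It had 68, 42, 43 and 36 counts in *Ptgs*+/+ tumors (5.30, 4.33, 3.77 and 3.77 CPM), 21, 12 and 10 counts in *Ptgs*-/- tumors (2.58, 1.24 and 0.912 CPM) and 8, 20 and 16 counts after NK cell depletion (0.856, 1.85 and 1.59 CPM). Each COX-deficient library was below each *Ptgs*+/+ library. Its log2 fold change was -1.54 ± 0.37 (SE; adjusted p = 0.0115, edgeR's quasi-likelihood test). The call was lost without *Ptgs*-/- replicate 2 or 3 (adjusted p = 0.0582 and 0.0530, edgeR's quasi-likelihood test) and within the first code (log2 fold change -1.27, adjusted p = 0.0663, edgeR's quasi-likelihood test). Its counts are low, and their part in this loss was not tested.

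*Bmp2* (ENSMUSG00000027358, chromosome 2 from 133552159 to 133562885, plus strand), the closest paralog of *Bmp4*, did not pass in any comparison. Its levels of 13.01, 8.04, 9.22 and 10.7 CPM in *Ptgs*+/+ tumors overlapped those of 12.5, 9.31 and 7.20 CPM in *Ptgs*-/- tumors. Levels after NK cell depletion were 6.21, 8.12 and 9.34 CPM. For COX loss, the 95% interval of its log2 fold change ran from -0.65 to 0.36.

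*Gdf15* (ENSMUSG00000038508, chromosome 8 from 70629393 to 70632456, minus strand) encodes a distant member of the family, induced by cell stress and p53, that signals through a brainstem receptor. It stood at 11.99, 8.66, 38.5 and 8.89 CPM in *Ptgs*+/+ tumors, at 18.04, 13.04 and 15.8 CPM in *Ptgs*-/- tumors and at 9.42, 10.6 and 14.7 CPM after NK cell depletion. The high value is that of *Ptgs*+/+ replicate 3, the library furthest from its group. With all libraries the log2 fold change was -0.19 (adjusted p = 0.801), and without that library it was 0.60 (adjusted p = 0.0534, both edgeR's quasi-likelihood test), so that neither passed and the sign turned. *Gfral*, which encodes its receptor, had 1 count in 1 of the 10 libraries and 0 in the others.

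The receptors differed in level and in change. *Tgfbr1* (ENSMUSG00000007613, chromosome 4 from 47353222 to 47414931, plus strand), the type I receptor, stood at 20.4, 19.7, 13.1 and 18.1 CPM in *Ptgs*+/+ tumors, at 21.3, 19.7 and 22.2 CPM in *Ptgs*-/- tumors and at 22.1, 17.3 and 18.5 CPM after NK cell depletion. The groups overlapped, and for COX loss the 95% interval of its log2 fold change ran from -0.17 to 0.54 (adjusted p = 0.457, edgeR's quasi-likelihood test).

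*Tgfbr2* (ENSMUSG00000032440, chromosome 9 from 116084293 to 116175360, minus strand), the type II receptor that binds the ligand first, stood at 76.9, 64.9, 37.4 and 105.1 CPM in *Ptgs*+/+ tumors. Its level reached 144.4, 155.2 and 117.4 CPM in *Ptgs*-/- tumors and 128.6, 94.8 and 134.3 CPM after NK cell depletion. The untreated groups did not overlap, and *Ptgs*+/+ replicate 3 was the lowest library. *Tgfbr2* rose by a log2 fold change of 0.92 ± 0.26 (SE; adjusted p = 0.0266), and 0.70 without that library (adjusted p = 0.0170, both edgeR's quasi-likelihood test). The call was lost in a fit of the 2 untreated groups alone (adjusted p = 0.0547, edgeR's quasi-likelihood test) and without *Ptgs*+/+ replicate 1 or 2 or *Ptgs*-/- replicate 1 or 2, and the adjusted p was highest in the absence of *Ptgs*-/- replicate 2, the top library (log2 fold change 0.83, adjusted p = 0.102, edgeR's quasi-likelihood test).

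**Figure D3:**
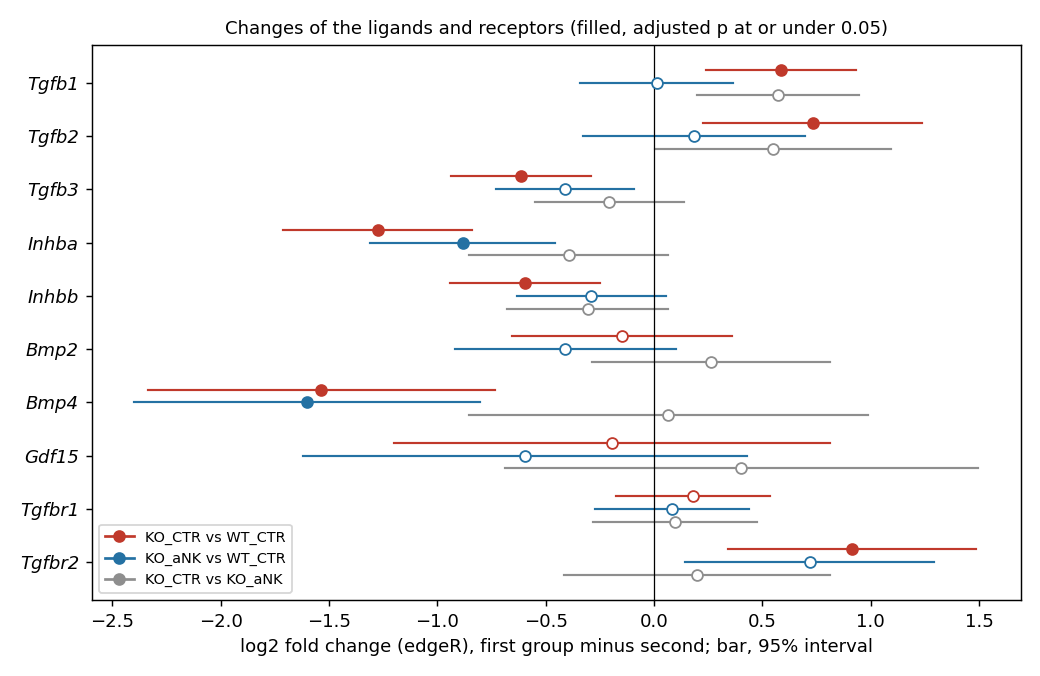
Log2 fold change of each ligand and receptor in the 3 comparisons, first group minus second, with its 95% interval from edgeR's fit of all 10 libraries; filled points passed at an adjusted p of 0.05. Of the 10 genes, 7 are filled for *Ptgs*-/- against *Ptgs*+/+ tumors, 2 (*Inhba* and *Bmp4*) for NK cell-depleted *Ptgs*-/- against *Ptgs*+/+ tumors, and 0 for the effect of NK cells within *Ptgs*-/- tumors.

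The promoters of the ligands that rose and of those that fell furthest are shown because these genes moved in opposite directions in the same tumors. RefSeq promoter windows (GRCm38.p6) were held for 8 of the 10 genes, and the 250 bases before the transcription start are given on the strand of the gene for *Tgfb1* (chr7:25686752-25687001, plus), *Tgfb2* (chr1:186705990-186706239, minus), *Inhba* (chr13:16011601-16011850, plus) and *Bmp4* (chr14:46390670-46390919, minus). Capitals mark matches on either strand to any of 5 motifs. The GC box, which Sp1 family factors bind, was searched as GGGCGG. The TATA box, which positions the transcription machinery, was searched as TATAAA. The E-box, bound by helix-loop-helix factors, was searched as CACGTG, and the core of the cAMP response element, which lies in the pathway of prostaglandin receptors, as TGACG. The fifth is the CCAAT box.
Tgfb1: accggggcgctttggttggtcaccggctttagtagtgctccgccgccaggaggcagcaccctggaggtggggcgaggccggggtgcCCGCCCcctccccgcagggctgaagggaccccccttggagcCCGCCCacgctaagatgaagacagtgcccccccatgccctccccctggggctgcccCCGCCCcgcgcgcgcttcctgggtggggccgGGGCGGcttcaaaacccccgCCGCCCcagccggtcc
Tgfb2: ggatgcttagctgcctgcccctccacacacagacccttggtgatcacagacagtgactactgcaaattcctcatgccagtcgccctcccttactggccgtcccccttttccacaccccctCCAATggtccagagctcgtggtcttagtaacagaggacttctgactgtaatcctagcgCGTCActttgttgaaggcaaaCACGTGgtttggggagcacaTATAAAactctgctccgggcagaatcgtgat
Inhba: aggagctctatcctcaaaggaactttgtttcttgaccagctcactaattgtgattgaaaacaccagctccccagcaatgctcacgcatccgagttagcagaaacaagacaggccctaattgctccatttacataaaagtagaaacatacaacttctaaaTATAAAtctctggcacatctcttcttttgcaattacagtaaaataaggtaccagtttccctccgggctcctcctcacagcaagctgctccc
Bmp4: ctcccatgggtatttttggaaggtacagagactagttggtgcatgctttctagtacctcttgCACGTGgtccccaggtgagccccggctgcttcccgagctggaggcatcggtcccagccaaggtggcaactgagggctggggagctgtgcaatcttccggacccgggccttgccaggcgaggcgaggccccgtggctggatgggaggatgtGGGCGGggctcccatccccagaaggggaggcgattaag

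The *Tgfb1* window was 75.2% G and C with 5 GC boxes, a motif held by 32.7% of the 32851 windows in the table, and it held none of the other motifs. *Tgfb2* held a TATA box 31 to 26 bases before the start (12.4% of all windows hold one), an E-box (6.02%), a CCAAT box (33.8%) and a core of the cAMP response element (17.8%) 72 to 68 bases before the start. *Inhba*, at 43.2% G and C, held 1 TATA box, 91 to 86 bases before the start, and *Bmp4* held 1 GC box and 1 E-box. Elsewhere in the family, the *Tgfbr2* window held 2 CCAAT boxes and the *Inhbb* window 1 GC box. The full cAMP response element (TGACGTCA, 1.55% of windows) and the doubled Smad binding element (GTCTAGAC, 0.167%) were in none of the members' windows, and each count says only which letters these windows hold.

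After NK cell depletion, *Inhba* and *Bmp4* were still below *Ptgs*+/+ tumors, and the other 8 genes did not pass. Relative to *Ptgs*+/+ tumors the log2 fold change after depletion was -0.88 ± 0.19 (SE) for *Inhba* (adjusted p = 0.0128) and -1.60 ± 0.36 (SE) for *Bmp4* (adjusted p = 0.0148, both edgeR's quasi-likelihood test). These 2 of 10 genes stand beside 12.5% of all genes that passed. With the added fold threshold 1 of 10 genes (*Bmp4*) and 2.71% of all genes passed, and the groups did not overlap for 4 of 10 genes (*Tgfb3*, *Inhba*, *Inhbb* and *Bmp4*) and 27.1% of all genes. Both calls were lost without depleted replicate 1 or 3, with adjusted p of at most 0.0592 for *Inhba* and 0.0670 for *Bmp4* (edgeR's quasi-likelihood test). The median log2 fold change over the 10 genes was -0.35, against -0.01 over all genes.

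Of the genes that did not pass against *Ptgs*+/+ tumors, *Tgfbr2* had a log2 fold change of 0.72 (95% interval 0.14 to 1.29, adjusted p = 0.0987) and *Tgfb3* of -0.41 (95% interval -0.73 to -0.09, adjusted p = 0.0920, both edgeR's quasi-likelihood test). *Tgfbr2* passed within the first code (log2 fold change 0.96, adjusted p = 0.0353), without *Ptgs*+/+ replicate 4 (adjusted p = 0.0299) and with no filter on low counts (adjusted p = 0.0195, all edgeR's quasi-likelihood test). The log2 fold change of *Tgfb1* was 0.01, with a 95% interval of -0.34 to 0.36.

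The direct comparison of *Ptgs*-/- tumors with and without NK cells passed for 0 of the 10 genes by edgeR's quasi-likelihood test and for 0 by DESeq2. By edgeR's test 2 of the 10 (*Tgfb1* and *Tgfb2*) had an unadjusted p under 0.05, beside 11.2% of all genes. Here 1.44% of all genes passed, 1.15% with the added fold threshold, and the groups did not overlap for 1 of the 10 genes (*Tgfb1*) and for 17.6% of all genes. *Tgfb1* was higher with NK cells present by a log2 fold change of 0.57 (95% interval 0.20 to 0.95, adjusted p = 0.187), and the call appeared only when *Ptgs*-/- replicate 1, the lowest of its group, was left out (0.73, adjusted p = 0.0316, both edgeR's quasi-likelihood test). For *Tgfb2* the log2 fold change was 0.55, with a 95% interval of 0.00 to 1.09 (adjusted p = 0.444, edgeR's quasi-likelihood test). *Inhba* stood at -0.39 with a 95% interval of -0.85 to 0.06, and *Bmp4* at 0.07 with a 95% interval of -0.86 to 0.99. The median log2 fold change was 0.15 over the 10 genes and -0.01 over all genes.

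Of 24 other superfamily ligands 9 had enough counts to be tested, and 2 passed in *Ptgs*-/- against *Ptgs*+/+ tumors, beside 23.1% of all genes. *Gdf11*, a close relative of myostatin, fell from 21.9 ± 1.03 CPM (SD, n = 4) to 14.5 ± 1.81 CPM (SD, n = 3), a log2 fold change of -0.66 (adjusted p = 0.00387), and was 16.0 ± 1.36 CPM (SD, n = 3) in depleted mice (-0.48 against *Ptgs*+/+ tumors, adjusted p = 0.0286, both edgeR's quasi-likelihood test). The *Gdf11* call after depletion was lost without *Ptgs*+/+ replicate 1, 2 or 4 or any 1 depleted tumor, with no filter and within the first code (adjusted p up to 0.119, edgeR's quasi-likelihood test), and the call for COX loss within the first code (adjusted p = 0.0511, edgeR's quasi-likelihood test). *Bmp8a*, better known from germ cells and brown fat, had 3, 1, 4 and 5 counts in *Ptgs*+/+ tumors, at or near the floor, against 16, 93 and 52 counts in *Ptgs*-/- tumors and 4, 11 and 25 counts after depletion. It rose in *Ptgs*-/- against *Ptgs*+/+ tumors (adjusted p = 0.00164, edgeR's quasi-likelihood test), and no fold is given because of the low counts.

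*Mstn*, which encodes myostatin, the muscle-restricted relative of the activins, had 31, 26 and 46 counts in tumors of NK cell-depleted mice and at most 2 counts in every other library. The same 3 libraries held 72, 140 and 289 counts of *Hfe2*, the BMP coreceptor hemojuvelin, against 9 to 22 in *Ptgs*-/- and 1 to 6 in *Ptgs*+/+ tumors. Both passed against *Ptgs*-/- tumors of untreated mice (adjusted p = 0.00200 and 0.00807, edgeR's quasi-likelihood test), *Hfe2* not without *Ptgs*-/- replicate 2 or within the first code. Skeletal muscle markers moved with them, with 6 of 6 higher than in *Ptgs*+/+ tumors and 5 of 6 passing against *Ptgs*-/- tumors, none of them at the floor, and with summed levels of 2206 to 5387 CPM in the depleted group, 108 to 398 CPM in *Ptgs*-/- and 19.9 to 168 CPM in *Ptgs*+/+ tumors, and the part of muscle in these differences was not tested.

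Among receptors and coreceptors outside the 10 genes, 13 of 17 could be tested and 3 passed in *Ptgs*-/- against *Ptgs*+/+ tumors, beside 23.1% of all genes. *Tgfbr3* and *Bmpr1a* were lower and *Hfe2* was higher. The *Hfe2* call (adjusted p = 0.0444) was lost on leaving out any *Ptgs*+/+ tumor, *Ptgs*-/- replicate 1 or 2 or depleted replicate 2, and with the replicate block (adjusted p = 0.0564, both edgeR's quasi-likelihood test). Here too all 6 skeletal muscle markers had a positive log2 fold change and 2 passed, and the part of muscle was not tested. *Tgfbr3* encodes betaglycan, which presents TGF-beta, *Tgfb2* product above all, to the signaling receptors. It stood at 120.4, 117.3, 80.3 and 115.9 CPM in *Ptgs*+/+ tumors, at 76.3, 69.5 and 68.1 CPM in *Ptgs*-/- tumors and at 70.1, 70.4 and 68.4 CPM after depletion. Both COX-deficient groups lay below the *Ptgs*+/+ libraries, with log2 fold changes of -0.66 (adjusted p = 0.00518) and -0.67 (adjusted p = 0.00807, both edgeR's quasi-likelihood test). *Bmpr1a*, a type I receptor for BMP2 and BMP4, fell from 36.3 ± 1.33 CPM (SD, n = 4) to 26.4 ± 3.86 CPM (SD, n = 3), a log2 fold change of -0.52 (adjusted p = 0.00935, edgeR's quasi-likelihood test). After depletion it stood at 30.9 ± 2.54 CPM (SD, n = 3) and did not pass against *Ptgs*+/+ tumors (-0.26, adjusted p = 0.175, edgeR's quasi-likelihood test). The *Bmpr1a* call was lost without *Ptgs*-/- replicate 2 (adjusted p = 0.0513), and both the *Bmpr1a* and the *Tgfbr3* call for COX loss within the first code (adjusted p = 0.0622 and 0.0603, all edgeR's quasi-likelihood test).

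All 11 genes of latency and activation were tested, and 4 passed in *Ptgs*-/- against *Ptgs*+/+ tumors (1 higher and 3 lower), beside 23.1% of all genes. *Thbs1*, which encodes thrombospondin-1, an activator of latent TGF-beta carried by platelets among others, stood at 119.6, 99.2, 58.8 and 89.5 CPM in *Ptgs*+/+ tumors and at 17.2 to 23.3 CPM in all 6 COX-deficient tumors. Its log2 fold change was -2.25 (adjusted p = 9.71e-05) in *Ptgs*-/- tumors and -2.19 (adjusted p = 0.000114, both edgeR's quasi-likelihood test) in those of depleted mice. 

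The 2 surface proteins that hold latent TGF-beta moved apart. *Lrrc32* (GARP, on regulatory T cells, platelets and endothelium) fell from 71.6 ± 6.34 CPM (SD, n = 4) to 42.2 ± 2.30 CPM (SD, n = 3), a log2 fold change of -0.82 (adjusted p = 0.00122, edgeR's quasi-likelihood test). *Nrros* (LRRC33, on macrophages and microglia) rose from 115 ± 6.38 CPM (SD, n = 4) to 195 ± 56.1 CPM (SD, n = 3), a log2 fold change of 0.71 (adjusted p = 0.00893, edgeR's quasi-likelihood test). *Ltbp1*, which tethers latent TGF-beta to the matrix, had a log2 fold change of -0.59 (adjusted p = 0.0246, edgeR's quasi-likelihood test). After depletion 3 of the 11 genes passed against *Ptgs*+/+ tumors (*Thbs1*, *Lrrc32* and *Itgb6*), beside 12.5% of all genes. *Itgb6*, an integrin subunit that activates TGF-beta, had 10, 12 and 19 counts there against at most 4 in every other library.

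Of 16 extracellular and membrane antagonists 12 could be tested and 2 passed, both lower, in each COX-deficient group against *Ptgs*+/+ tumors. Of all genes 23.1% passed in *Ptgs*-/- tumors of untreated mice and 12.5% in those of depleted mice. *Fst* encodes follistatin, which neutralizes activins with high affinity and is itself induced by activin. It stood at 264.0, 190.0, 103.3 and 310.2 CPM in *Ptgs*+/+ tumors, at 53.1, 38.4 and 25.9 CPM in *Ptgs*-/- tumors and at 45.9, 40.2 and 54.1 CPM after depletion. The 6 COX-deficient libraries all lay below the lowest *Ptgs*+/+ library, and the log2 fold changes were -2.53 (adjusted p = 0.000628) and -2.24 (adjusted p = 0.00163, both edgeR's quasi-likelihood test). There were 1.83 to 6.24 *Fst* counts per *Inhba* count in *Ptgs*+/+ tumors, 1.15 to 2.44 in *Ptgs*-/- tumors and 1.29 to 1.82 after depletion, so that the ranges overlap, and *Ptgs*+/+ replicate 3 had the 1.83. *Grem1*, which encodes the BMP antagonist gremlin-1, fell from 191 ± 29.7 CPM (SD, n = 4) to 98.3 ± 52.2 CPM (SD, n = 3), a log2 fold change of -1.02 (adjusted p = 0.0196, edgeR's quasi-likelihood test), and the call was lost without *Ptgs*+/+ replicate 1 or *Ptgs*-/- replicate 2 or 3 (adjusted p of at most 0.0837, edgeR's quasi-likelihood test), in a fit of the 2 groups alone and within the first code. After depletion the *Grem1* log2 fold change was -0.97 (adjusted p = 0.0373), a call lost without *Ptgs*+/+ replicate 1, 2 or 4 or any 1 depleted tumor, within the first code and with the code as a covariate (adjusted p up to 0.124, both edgeR's quasi-likelihood test).

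**Figure D4:**
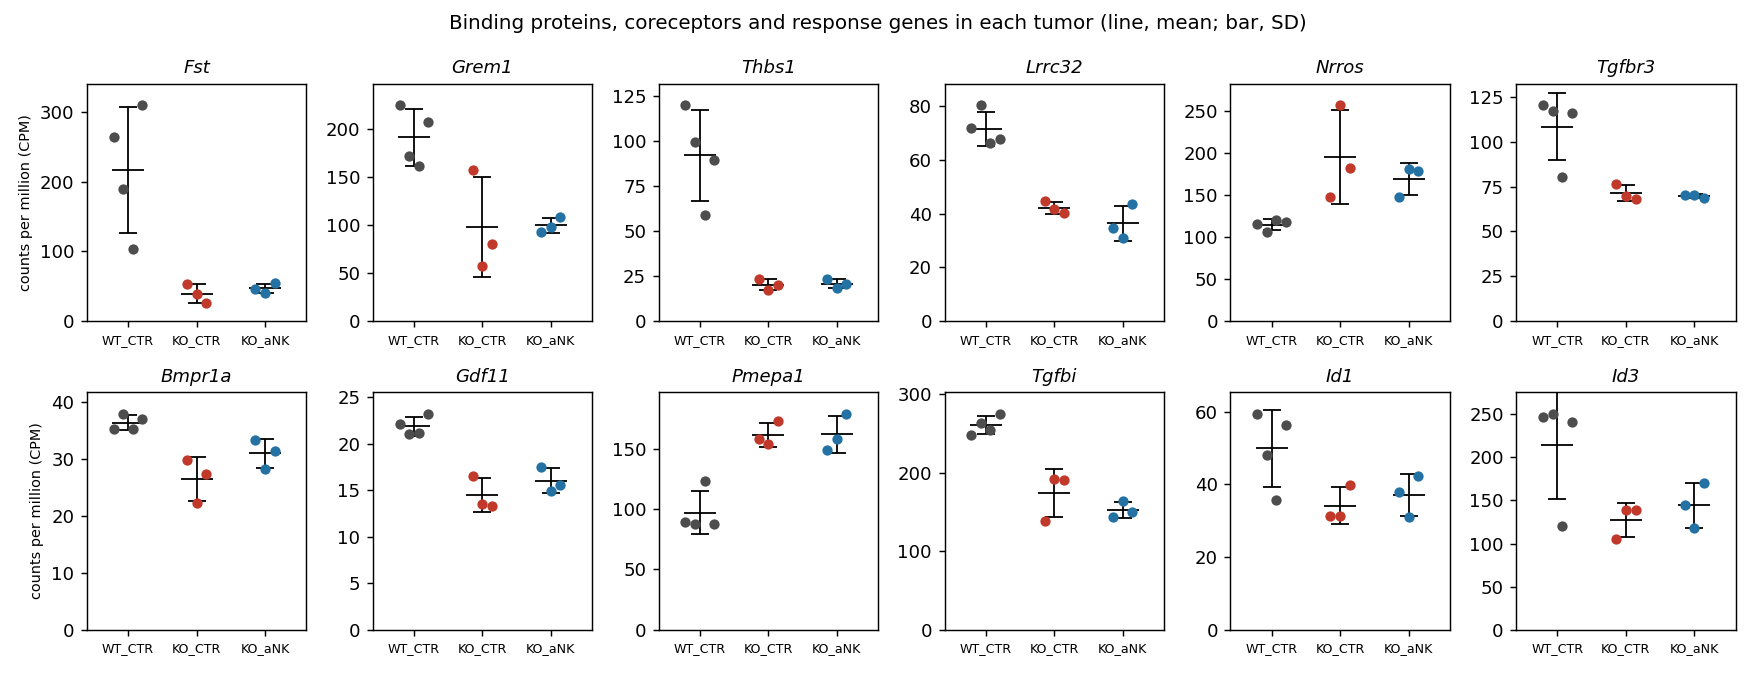
Levels of 12 genes around the ligands in every tumor, in CPM on linear axes from 0, with 1 point per library, a line at the group mean and a bar of 1 SD (n = 4, 3 and 3). *Fst* and *Thbs1* are below every *Ptgs*+/+ library in all 6 COX-deficient tumors, *Nrros* and *Pmepa1* are above, and *Ptgs*+/+ replicate 3 lies near the COX-deficient tumors for *Id3*.

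Of the 7 Smads tested, 0 passed in any of the 3 comparisons by edgeR's quasi-likelihood test or by DESeq2, and 0 had an unadjusted p under 0.05 by either. Of all genes, 23.1% passed by edgeR's test for COX loss, 12.5% in depleted mice against *Ptgs*+/+ tumors and 1.44% for NK cells within *Ptgs*-/- tumors. The shares of all genes with an unadjusted p under 0.05 were 35.9%, 27% and 11.2%. For COX loss the log2 fold changes of the Smads ran from -0.44 to 0.07, and their phosphorylation is not measured by RNA. Of 11 TGF-beta and activin response genes 2 passed for COX loss, in opposite directions, beside 23.1% of all genes. *Pmepa1*, a TGF-beta-induced inhibitor of Smad signaling, rose from 97.1 ± 17.7 CPM (SD, n = 4) to 161 ± 10.1 CPM (SD, n = 3), a log2 fold change of 0.67 (adjusted p = 0.00383, edgeR's quasi-likelihood test). *Tgfbi*, a TGF-beta-induced matrix protein, fell from 261 ± 11.4 CPM (SD, n = 4) to 174 ± 30.5 CPM (SD, n = 3), a log2 fold change of -0.64 (adjusted p = 0.00294, edgeR's quasi-likelihood test). Both passed in the same directions in depleted mice against *Ptgs*+/+ tumors, at 0.71 and -0.80 (adjusted p = 0.00482 and 0.00128, edgeR's quasi-likelihood test).

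Of 10 BMP response genes 9 could be tested, and 4 passed in *Ptgs*-/- against *Ptgs*+/+ tumors, beside 23.1% of all genes. *Id1*, *Id3* and *Hey1*, which BMP induces, fell (by -0.60, -0.81 and -0.81 on the log2 scale, with adjusted p = 0.0284, 0.0266 and 0.00993, edgeR's quasi-likelihood test), and *Id2*, which NK cells also need for their development, rose (0.37, adjusted p = 0.0373, edgeR's quasi-likelihood test). The *Id3* call was lost without any 1 library of the untreated groups other than *Ptgs*+/+ replicate 3, in a fit of the 2 groups alone, within the first code and with the replicate block (adjusted p up to 0.114, edgeR's quasi-likelihood test). The *Id1* call was lost without *Ptgs*+/+ replicate 1, 2 or 4 or *Ptgs*-/- replicate 1 or 2, in a fit of the 2 groups alone, within the first code and when scaled by library size alone (adjusted p up to 0.117, edgeR's quasi-likelihood test). *Ptgs*+/+ replicate 3 had 120.7 CPM of *Id3* against 240.6 to 250.4 CPM in the other *Ptgs*+/+ tumors. With COX loss the median log2 fold change was -0.16 over the TGF-beta and activin response genes (6 of 11 lower). It was -0.44 over the BMP response genes (6 of 9 lower), against -0.01 over all genes. Of the genes that passed, 1 of the 2 TGF-beta and activin genes and 3 of the 4 BMP genes fell. In depleted mice against *Ptgs*+/+ tumors 0 of the 9 BMP genes passed by edgeR's quasi-likelihood test and 1 by DESeq2. There *Id1* and *Id3* had log2 fold changes of -0.46 and -0.61. *Hey1* had one of -0.10, with means of 8.32 CPM in *Ptgs*+/+, 4.93 CPM in *Ptgs*-/- and 7.93 CPM in depleted mice.

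Because *Gdf15* is a stress and p53 target, 10 genes of those responses were read beside it. With COX loss all 10 had a positive log2 fold change and 5 passed, beside 23.1% of all genes. Their median was 0.43 against -0.01 over all genes, while *Gdf15* itself did not pass. *Trib3* rose from 16.8 ± 5.07 CPM (SD, n = 4) to 52.0 ± 26.0 CPM (SD, n = 3), a log2 fold change of 1.57 (adjusted p = 0.00348), and *Ddit3* by a log2 fold change of 1.32 (adjusted p = 0.0131), both by edgeR's quasi-likelihood test. *Ccng1*, a p53 target, rose by 0.45 (adjusted p = 0.0170) and, in depleted mice, by 0.73 (adjusted p = 0.00197, both edgeR's quasi-likelihood test), with the first of these calls lost without *Ptgs*-/- replicate 1 or within the first code. In depleted mice 3 of the 10 passed, beside 12.5% of all genes. The others were *Mdm2* (0.61, adjusted p = 0.00377) and *Trib3* (1.14, adjusted p = 0.0289, both edgeR's quasi-likelihood test). That *Trib3* call was lost without *Ptgs*+/+ replicate 1, 2 or 4 or any 1 depleted tumor.

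The cell makeup of the tumors differed between the same groups, and in bulk RNA fewer cells of a type and less RNA per cell cannot be told apart. In *Ptgs*-/- against *Ptgs*+/+ tumors 5 of 7 fibroblast and 5 of 7 macrophage markers rose, with summed levels of 12571 to 15516 against 6887 to 9560 CPM and of 2617 to 4139 against 1641 to 1924 CPM, and none of these markers was at or under 3 counts in every library. Most of the fibroblast sum was *Col1a1*, *Col1a2* and *Col3a1*. Of the fibroblast markers that did not pass, *Pdgfra* was higher (mean 79.5 against 58.9 CPM) and *Pdgfrb* lower (mean 56.7 against 74.8 CPM). Of 6 endothelial markers 3 fell, none at the floor, with summed levels of 135 to 314 against 334 to 390.0 CPM. Of 4 platelet markers, *Ppbp* and *Pf4* fell, *Gp9* was at the floor in every library, and *Itga2b* did not pass (log2 fold change 0.34, 95% interval -0.13 to 0.82), with summed levels of 247 to 357 against 450.4 to 529.9 CPM, most of them *Pf4*. Of 6 neutrophil markers tested 4 fell, with summed levels of 39.9 to 60.8 against 198 to 268 CPM, most of them *S100a8* and *S100a9*. The other 2, *Csf3r* (mean 5.40 against 3.38 CPM) and *Retnlg* (mean 6.75 against 5.41 CPM), were higher and did not pass. All 5 NK cell markers tested rose, with summed levels of 53.6 to 118 against 7.01 to 22.3 CPM, and 4 of 5 T cell markers rose, with 10.4 to 29.7 against 3.19 to 4.81 CPM. After NK cell depletion the summed levels were 90.2 to 126 CPM for neutrophil, 0.695 to 2.58 CPM for NK cell and 9.14 to 11.8 CPM for T cell markers. In the same tumors they were 2398 to 2708 CPM for macrophage, 9949 to 12727 CPM for fibroblast, 217 to 329 CPM for endothelial and 263 to 299 CPM for platelet markers. Summed marker RNA of NK cells, T cells, macrophages and fibroblasts moved in the direction of *Tgfb1*, *Tgfb2* and *Tgfbr2*. That of neutrophils, endothelium and platelets moved in the direction of *Tgfb3*, *Inhba*, *Inhbb* and *Bmp4*, and the part of these cells in the results was not tested.

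The genes most like the 3 members with the smallest adjusted p were sought over all 10 libraries among 9081 genes, as a description with no test. *Inhba* was most like *Mex3a*, *Mllt3* and *Aig1* (Pearson's r = 0.98, 0.97 and 0.97). *Bmp4* was most like *Dnttip2*, *Gnl3* and *Loxl4* (r = 0.96, 0.96 and 0.95), and *Tgfb3* most like *Zmym1*, *Afg3l1* and *Eipr1* (r = 0.99, 0.98 and 0.98). The libraries share their group and depth in these correlations.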

How the data were processed

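The authors prepared QuantSeq 3′ libraries of bulk tumor RNA, used STAR for alignment of trimmed reads to GRCm38 and featureCounts for gene counting, and deposited unnormalized counts of single tumors. The strand setting of the counting is not given in the sources used here. Replicate libraries differed by 8.06 to 33.2 in chi-square per degree of freedom over genes, so none was counted more than once.

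Gene names and positions came from GENCODE M21, which named 45143 of 45706 identifiers. The tests used edgeR 4.0.16 in R 4.3.3 (filterByExpr, TMM, quasi-likelihood test with Benjamini-Hochberg adjustment, 1 model of 10 libraries, 14550 genes) and DESeq2 1.42.0 as an alternative, and tested on simulated data. CPM are counts scaled to a common library total, and their precision rests on 8 to 1500 counts per library for the 10 genes. Members and gene lists were chosen with earlier results of these data known. Named are the 10 genes, *Ptgs1* and *Ptgs2*, per list and comparison the 3 passing genes with the smallest adjusted p, and for likeness 3 genes of at least 10 CPM for each of 3 members. *Ltbp1*, *Id2*, *Inha*, *Gfral* and *Ttll5* were named after their values were seen. *Ptgs1* fell from 152 ± 17.5 CPM (SD, n = 4) to 94.0 ± 15.0 CPM (SD, n = 3). Alternatives were other normalizations, filters and tests, a covariate for the experiment code, the first code by itself, a replicate block, the study's fold threshold and each library left out. The paper gives another depletion schedule than the labels.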

Additional observations from a re-analysis of the deposited data

Results flagged for a closer look

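In the 4 *Ptgs*+/+ tumors, 38 quantities (the genes named in the report and the shares and sums of the TGF-beta isoforms) were checked for a library far from the other 3, and 4 were found, all in replicate 3. Chance alone marks about 1 quantity in 20. *Gdf15* stood at 38.5 CPM there against 8.66 to 11.99 CPM in the other 3 tumors. *Tgfbr3* stood at 80.3 CPM against 115.9 to 120.4 CPM, *Id3* at 120.7 CPM against 240.6 to 250.4 CPM, and *Pmepa1* at 123.5 CPM against 87.4 to 89.3 CPM. For *Tgfbr3*, *Id3* and *Pmepa1* that library lay on the side of the COX-deficient tumors, and for *Gdf15* above all other libraries.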

How the results depend on the processing

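In *Ptgs*-/- against *Ptgs*+/+ tumors the 7 passing members kept their sign in every alternative that tested them, and 7, 6 or 5 passed in all but the following. Among libraries of the first code 4 members and 2222 genes passed (7 and 3360 with all libraries), and under the study's fold threshold 1 member and 604 genes. Leaving out 1 library gave 3 to 7 members and 2062 to 3881 genes, both fewest without *Ptgs*-/- replicate 2. In depleted mice against *Ptgs*+/+ tumors 1 member (of 2) passed with at least 10 counts in every library, since *Bmp4* was then not tested, and 1 member and 395 genes (of 1818) under the fold threshold, while leaving out 1 library gave 0 to 3 members and 909 to 2116 genes. For NK cells within *Ptgs*-/- tumors 209 genes passed, against 383 by DESeq2, 408 with no filter, 403 by the likelihood ratio test, 42 under a minimum of 10 counts per library and 93 in the first code, and leaving out 1 library gave 0 to 1 members and 106 to 411 genes; the cause was not tested. DESeq2 put 54.6% of its calls there on the higher side, against 35.9%, and library size alone moved the share in *Ptgs*-/- against *Ptgs*+/+ tumors by less than 10 points, from 52.5% to 61.2%. Same-numbered libraries of different groups correlated at -0.24 to 0.36 and differently numbered ones at -0.43 to 0.17, ranges that overlap. Numbers were matched across the experiment codes, so these values cannot settle whether the numbers pair the tumors. With the replicate block 6 (without *Tgfb2*), 0 and 2 members and 3237, 195 and 1769 genes passed. *Bmp4* and the shares rest on few counts, and no call reversed.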
